A study of Mus musculus with 7 samples.

Results

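The genes described here are 9 transcription factors of the homeobox superfamily that were followed in mouse liver endothelium: Meis1, Meis2, Meis3 and Pbx3 of the TALE class, Hhex and Hlx of the NK-like group, and the HOX genes Hoxa9, Hoxb5 and Hoxd8. They were taken by name from the deposited table of read counts, in which all 9 were present among 52636 Ensembl genes. Polyadenylated RNA was sequenced from liver endothelial cells isolated by flow sorting, in 4 libraries of the c-Maf KO genotype, in which Maf, encoding a transcription factor of the large MAF group, was knocked out, and in 3 libraries of the control genotype. The promoter or Cre line behind the knockout, the part of Maf that was removed, and the strain, age and sex of the mice were not given in the sources used here. Neither was it given whether each library was made from another animal, so a p-value here covers the variation among libraries, part of which may be technical.

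Homeobox genes encode transcription factors that bind DNA through a homeodomain. TALE proteins carry a longer loop in that domain and act as partners: PBX and MEIS proteins pair with each other and with HOX proteins on joint DNA sites, and the PKNOX proteins compete with MEIS for PBX. MEIS2 has been listed with MAF and GATA4 among the factors enriched in liver sinusoidal endothelium, the fenestrated lining of the liver's capillaries. MEIS1 is needed in mice for megakaryocytes, blood stem cells and normal vessels. HHEX is a repressor required for early liver and vessel formation. HLX is required in mice for growth of the fetal liver and gut. HOXB5 can activate the VEGF receptor gene Kdr in mouse endothelial precursors.

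The start regions of the 3 genes with an entry in the RefSeq promoter table (GRCm38.p6) whose RNA differed between KO and control are shown, since these members changed, and in both directions. Each runs 5′ to 3′ on the strand of the gene, with 250 bases before the RefSeq start site and 50 after it, and capitals mark the CCAAT box, a common promoter element, read on either strand (CCAAT or ATTGG). The Meis1 window lies at chr11:19018920-19019219, the Meis2 window at chr2:116064570-116064869 and the Hlx window at chr1:184732444-184732743, all on the minus strand.
Meis1: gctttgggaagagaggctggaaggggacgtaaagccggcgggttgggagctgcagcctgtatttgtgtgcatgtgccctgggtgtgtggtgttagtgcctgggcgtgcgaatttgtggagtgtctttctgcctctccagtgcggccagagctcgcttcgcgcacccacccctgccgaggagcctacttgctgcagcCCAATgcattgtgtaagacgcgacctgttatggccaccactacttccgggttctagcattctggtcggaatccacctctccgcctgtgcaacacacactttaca
Meis2: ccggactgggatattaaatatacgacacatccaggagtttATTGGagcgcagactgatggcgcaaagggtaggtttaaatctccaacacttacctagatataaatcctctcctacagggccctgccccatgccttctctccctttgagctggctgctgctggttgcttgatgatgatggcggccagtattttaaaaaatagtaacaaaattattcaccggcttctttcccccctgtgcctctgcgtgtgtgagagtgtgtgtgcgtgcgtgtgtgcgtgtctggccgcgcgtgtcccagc
Hlx: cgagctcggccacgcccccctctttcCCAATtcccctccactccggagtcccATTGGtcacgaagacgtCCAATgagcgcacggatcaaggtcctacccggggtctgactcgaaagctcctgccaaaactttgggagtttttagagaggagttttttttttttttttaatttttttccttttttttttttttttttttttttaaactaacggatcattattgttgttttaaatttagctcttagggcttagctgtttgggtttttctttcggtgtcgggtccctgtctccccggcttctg

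Meis1 held 1 CCAAT box, beginning at -54 from the start site, and Meis2 held 1, in the reverse sense, at -210. Hlx held 3, beginning at -224, -198 and -181. CCAAT was present in 37.4% of 32851 mouse promoter windows of the same length. The windows of Meis1, Meis2 and Hlx were 58.3%, 51.0% and 44.3% G and C, with 15, 13 and 14 CpG, against medians of 52.7% and 7 CpG over all windows. In that order, 65.4%, 62.1% and 63.7% of all windows held fewer CpG. Both strands of the 7 members with an entry (Meis1, Meis2, Meis3, Hhex, Hlx, Hoxa9 and Hoxd8) were also searched for TGCTGA (a short MAF site, in 19.5% of all windows), TGACTCA (the AP-1 site, 5.20%), TGACAG (the MEIS site, 19.2%), TGATTGAT (the PBX and HOX joint site, 0.746%) and TAATTA (a homeodomain core, 5.29%). None of these strings occurred in any of the 7 windows. The Meis2, Meis3 and Hoxa9 windows lie wholly inside the annotated span of their gene, so a start further upstream may be used. Which start these cells use was not tested. The Hhex window was the richest of the 7 in CpG, with 37, more than in 94.4% of all windows.

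Library totals lay between 24772716 and 32960007 counts. Levels are CPM, read counts relative to the size of the library, after TMM scaling, which sets most genes level between libraries. Maf had 28.9, 159, 125 and 37.7 CPM in KO libraries 1 to 4, against 1664, 2088 and 2147 CPM in control libraries 1 to 3, so the labels and the targeted gene matched. Of 15512 genes that passed the filter on low counts, 45.2% differed between KO and control at an adjusted p under 0.05 (edgeR's quasi-likelihood test, Benjamini-Hochberg), 23.0% being higher in KO and 22.2% lower. The split depended on scaling: 50.8% of the calls were higher with TMM, 63.4% with upper-quartile factors and 76.3% when libraries were scaled by their totals. For 50.3% of the tested genes the KO and control libraries did not overlap. Summed sinusoidal markers (8 genes) were at 6813 to 10890 CPM in KO and 31180 to 34150 CPM in control libraries, with 6 of 8 lower, and summed pan-endothelial markers (8 genes) at 9832 to 14360 CPM in KO and 17510 to 19460 CPM in control libraries. Pecam1, Cdh5 and the other pan-endothelial markers were present in every library. In bulk RNA, fewer cells of a type and less RNA per cell cannot be told apart. The sequencing lane named in the labels was lane 4 for KO 3 and control 3 and lane 5 for the rest.

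Of the 9 members, 7 passed the filter on low counts. Meis1 and Hlx rose in KO, Meis2 and Hoxb5 fell, and Meis3, Pbx3 and Hhex did not pass the test. These 4 of 7 stand beside 45.2% of all genes, so the share of members that changed was near the background. KO and control libraries did not overlap for 5 of the 7, against 50.3% of all genes. The median log2 fold change of the 7 was 0.25, and that of all tested genes 0.04. Hoxa9 and Hoxd8 were barely detected and were not tested.

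**Figure D1:**
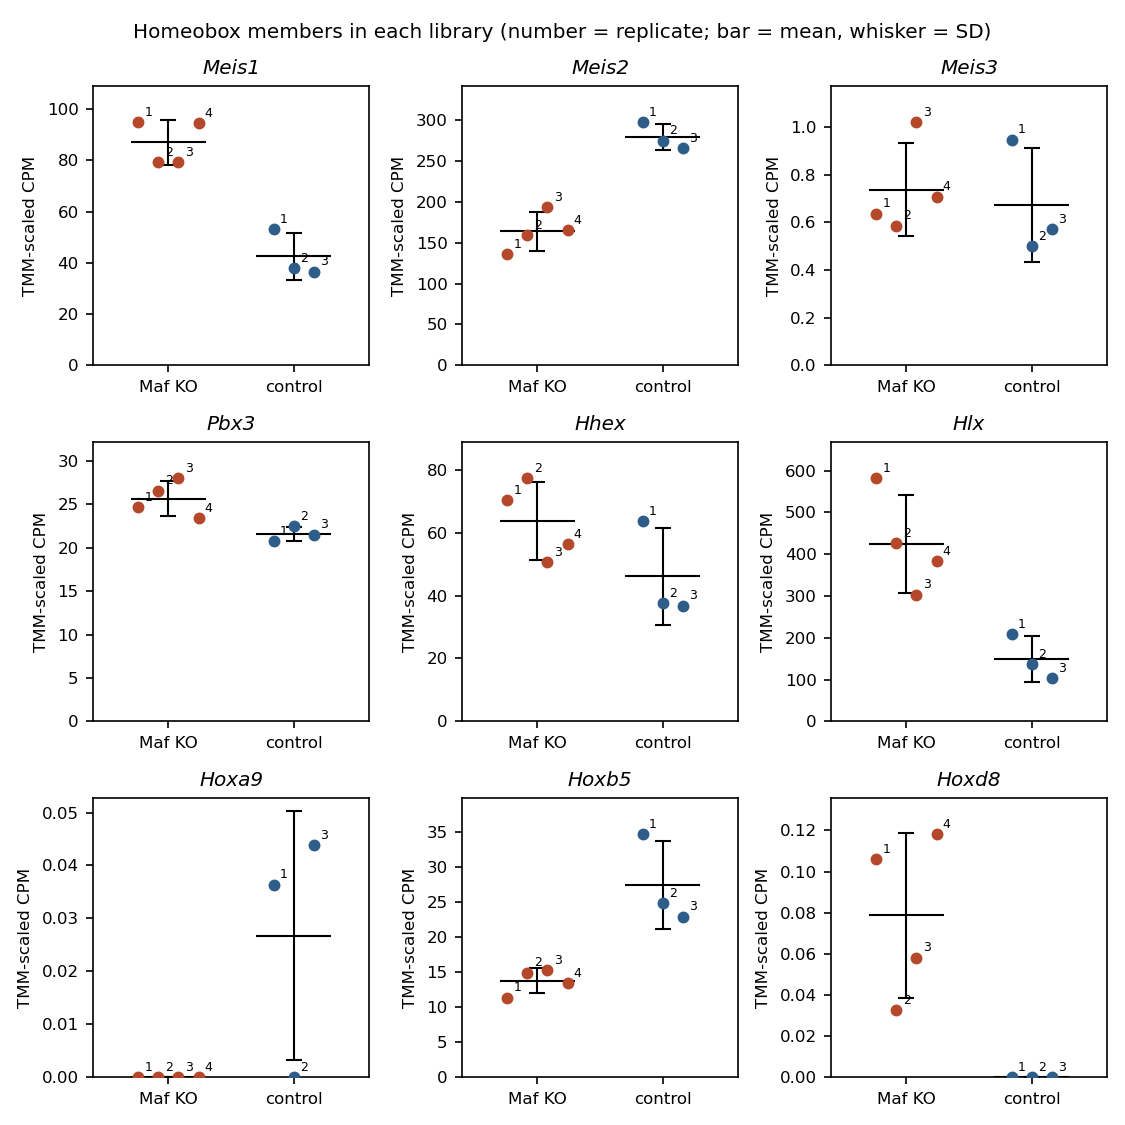
TMM-scaled CPM of the 9 homeobox members in each library, Maf KO left and control right; each point is a library with its replicate number, the bar is the group mean and the whisker the SD. Meis1 and Hlx lie higher in all 4 KO libraries than in any control library, Meis2 and Hoxb5 lie lower, and control library 1 stands above KO libraries 3 and 4 for Hhex.

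The 2 main MEIS genes of these cells moved in opposite directions. Meis1 (ENSMUSG00000020160, chr11:18879817-19018985, minus strand, GRCm38) had 94.8, 79.2, 79.4 and 94.6 CPM in KO libraries 1 to 4, against 53.2, 38.0 and 36.5 CPM in control libraries 1 to 3. Every KO library was above every control library, and control 1 was the highest control. Meis1 averaged 87.0 ± 8.85 CPM in KO and 42.6 ± 9.22 CPM in control (SD, n = 4 and 3), a 2.04-fold rise (log2 fold change 1.03, SE 0.14, adjusted p = 0.00058). Of all tested genes, 18.3% differed by more than this in size. An antisense and a same-strand transcript share 8.51% and 9.77% of its exon bases; they held 6 and 554 counts in all, against 14254 for Meis1.

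Meis2 (ENSMUSG00000027210, chr2:115863064-116065839, minus strand) had 136, 159, 194 and 165 CPM in KO libraries 1 to 4, against 297, 275 and 266 CPM in control libraries 1 to 3. All KO libraries were below all control libraries, with KO 3 nearest to them. The means were 164 ± 23.5 CPM in KO and 279 ± 16.1 CPM in control, a log2 fold change of -0.77 (SE 0.12, adjusted p = 0.00108), so that control was 1.71-fold above KO. Of all tested genes, 27.5% differed by more.

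The ratio of Meis1 to Meis2 counts within a library does not depend on scaling. It was 0.695, 0.497, 0.411 and 0.572 in KO libraries 1 to 4, against 0.179, 0.138 and 0.138 in control libraries 1 to 3, a mean 3.58 times as high in KO. Per kb of exon, Meis1 made up 38.0 ± 5.21% of the summed level of Meis1 and Meis2 in KO and 14.8 ± 1.95% in control. Meis2 remained the more abundant of the pair per length in every library. The summed level of both was 21.9 ± 1.57 CPM per kb in KO and 27.2 ± 2.20 CPM per kb in control, and the groups did not overlap in it. These ratios and sums were chosen after the values of the genes were seen and carry no test.

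Meis3 (ENSMUSG00000041420, chr7:16175090-16186504, plus strand), which in mouse islets sustains beta cell survival, was at the edge of detection with 146 counts in all libraries together. It had 0.637, 0.586, 1.02 and 0.708 CPM in KO libraries 1 to 4, against 0.947, 0.4996 and 0.570 CPM in control libraries 1 to 3. The groups overlapped, and a difference was not detectable at this depth (log2 fold change 0.13, SE 0.34, adjusted p = 0.778); its sign turned in lane 5 alone, to -0.22.

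Pbx3 (ENSMUSG00000038718, chr2:34171457-34373142, minus strand), a DNA-binding partner of MEIS and HOX proteins, had 24.7, 26.6, 28.0 and 23.4 CPM in KO libraries 1 to 4, against 20.8, 22.4 and 21.5 CPM in control libraries 1 to 3. The groups did not overlap, yet the gap between KO 4 and control 2 was small. The means were 25.7 ± 2.01 CPM in KO and 21.6 ± 0.847 CPM in control. The test missed the threshold (log2 fold change 0.25, SE 0.09, adjusted p = 0.0523). The call depends on scaling: with library totals the log2 fold change was 0.51 (adjusted p = 0.00107), and with upper-quartile factors 0.38 (adjusted p = 0.00591).

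Of 18 TALE genes listed, 10 were tested. Among them 4 rose, 2 fell and 4 did not pass the test (median log2 fold change 0.19). The share called was 60%, beside 45.2% of all tested genes. Pknox2, whose product binds PBX as MEIS proteins do, rose 6.38-fold: it had 28.5, 39.2, 39.7 and 28.0 CPM in KO libraries 1 to 4, against 4.08, 8.29 and 3.55 CPM in control libraries 1 to 3 (log2 fold change 2.67, SE 0.29, adjusted p = 0.000152). Pknox1, its closest relative, fell: it had 26.3, 27.8, 31.1 and 23.6 CPM in KO libraries 1 to 4, against 46.4, 55.3 and 48.3 CPM in control libraries 1 to 3 (log2 fold change -0.88, SE 0.11, adjusted p = 0.000306). Per kb of exon Pknox1 stayed the higher of the pair in every library, with 3.92 CPM per kb in KO and 7.21 CPM per kb in control for Pknox1, and 3.28 CPM per kb in KO and 0.513 CPM per kb in control for Pknox2. The ratio of Pknox2 to Pknox1 counts averaged 1.24 ± 0.138 in KO and 0.104 ± 0.0406 in control. Per kb, the 2 genes together were at 7.20 ± 1.04 CPM in KO and 7.73 ± 0.912 CPM in control, and the groups overlapped.

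**Figure D2:**
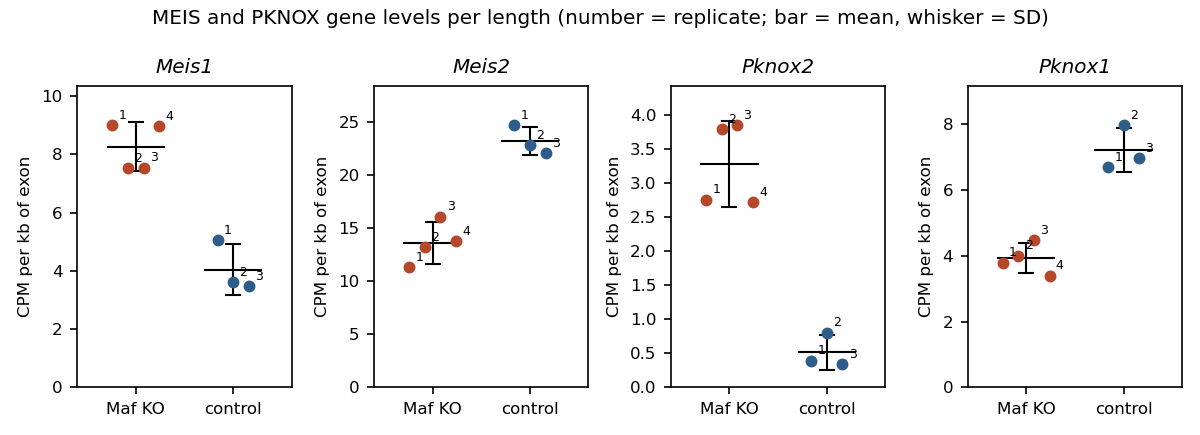
CPM per kb of exon for Meis1, Meis2, Pknox2 and Pknox1 in each library, Maf KO left and control right, with the group mean (bar) and SD (whisker). In both pairs of related TALE genes one lies higher and the other lower in all 4 KO libraries.

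Tgif1 and Tgif2, TALE repressors that damp TGF-beta signalling through SMAD proteins, were the other TALE genes that rose. Tgif1 averaged 35.9 ± 12.3 CPM in KO and 10.8 ± 4.45 CPM in control (log2 fold change 1.73, adjusted p = 0.00242). Tgif2 averaged 2.45 ± 0.595 CPM in KO and 0.908 ± 0.261 CPM in control (log2 fold change 1.43, adjusted p = 0.00424). Of the exon bases of Tgif2, 56.7% lie under a transcript of the opposite strand, so its count is uncertain. Pbx2, a relative of Pbx3, did not pass the test, with 82.9 ± 8.63 CPM in KO and 88.8 ± 9.33 CPM in control (adjusted p = 0.47). Tgif2 and Pbx2 were named after their values were seen.

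Meis1 is also expressed in the megakaryocyte lineage. The 7 markers of that lineage summed to 29.3 to 44.0 CPM in KO and 16.8 to 20.7 CPM in control libraries. Among 5 tested markers 4 were higher, beside 23.0% of all tested genes. Most of the sum was Itga2b, which had 23.7 to 31.8 CPM in KO and 11.1 to 13.9 CPM in control libraries, whereas Pf4, a platelet granule gene, had 2.44 to 3.75 CPM in KO and 3.38 to 6.79 CPM in control libraries; Gp9 was at 0 in control 2. Of the blood progenitor markers, Elane was at 0 in all libraries and Mpo in all but KO 4. KO 4 was highest and KO 3 lowest in this sum among the KO libraries, whereas in Meis1 KO 1 and KO 4 were level with each other and above KO 2 and KO 3. The full KO order of Meis1 (1, 4, 3, 2) was also that of the summed hepatocyte markers and of 5.93% of all tested genes. Over control libraries 1 to 3 the orders were reversed: Meis1 fell, whereas the hepatocyte sum rose from 270 to 276 and 300 CPM. The part of other cells in the Meis1 difference was not tested.

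Hlx was the highest member per length and the one that moved most. Hlx (ENSMUSG00000039377, chr1:184727140-184732619, minus strand) had 581, 427, 303 and 383 CPM in KO libraries 1 to 4, against 209, 136 and 103 CPM in control libraries 1 to 3. All KO libraries were above all control libraries, and the spread within each group was wide. The means were 424 ± 117 CPM in KO and 150 ± 54.3 CPM in control, a 2.83-fold rise (log2 fold change 1.501, SE 0.28, adjusted p = 0.00241). Of all tested genes, 9.66% differed by more.

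A list of 14 immediate-early and stress genes was added after the values were seen, so its likeness to Hlx carries no test. Its summed level was 26440, 21560, 13150 and 15810 CPM in KO libraries 1 to 4, against 11690, 11340 and 9058 CPM in control libraries 1 to 3. Of the 14 genes, 6 were higher and 8 did not pass the test. This 42.9% called stands beside 45.2% called and 23.0% higher of all tested genes. None of the 14 was at 0 in any library. Atf3 and Egr1 were among the 6, with log2 fold changes of 2.73 and 1.68. The order of the KO libraries (1, 2, 4, 3) and of the control libraries (1, 2, 3) was the same in Hlx and in this sum. Of all tested genes, 6.21% had that KO order, and the share with both orders was not counted. The part of this response in the Hlx difference was not tested. Without KO 1 and KO 4 together the log2 fold change of Hlx was 1.28 (adjusted p = 0.0137).

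Hhex (ENSMUSG00000024986, chr19:37434810-37440731, plus strand), the other NK-like member, did not pass the test. It had 70.4, 77.2, 50.7 and 56.3 CPM in KO libraries 1 to 4, against 63.7, 37.7 and 36.8 CPM in control libraries 1 to 3. Control 1 stood above KO 3 and KO 4, so the groups overlapped. The means were 63.7 ± 12.3 CPM in KO and 46.1 ± 15.3 CPM in control (log2 fold change 0.47, SE 0.22, adjusted p = 0.107). Without control 1 the log2 fold change was 0.77 (adjusted p = 0.0104), so the call depends on this library, though not on it alone. With all libraries kept, the log2 fold change was 0.73 with library totals (adjusted p = 0.0194) and 0.59 with upper-quartile factors (adjusted p = 0.0489). Hepatocytes also express Hhex: their 10 markers, all present in every library, summed to 333 to 1330 CPM in KO and 270 to 300 CPM in control libraries. Of these markers 5 of 10 were higher, beside 23.0% of all tested genes. Hhex was highest in KO 2 and control 1, which held the lowest hepatocyte sums of their groups, 333 and 270 CPM. The part of hepatocytes in the Hhex difference was not tested. The Hlx to Hhex ratio averaged 6.64 ± 1.20 in KO and 3.24 ± 0.408 in control.

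Of 47 NK-like genes listed, 6 were tested. Among them 3 rose, 1 fell and 2 did not pass the test (66.7% called, beside 45.2% of all tested genes). Msx1, a repressor of differentiation in limb and craniofacial tissue, had 9.52, 3.48, 3.23 and 4.57 CPM in KO libraries 1 to 4, against 0.546, 0.833 and 0.570 CPM in control libraries 1 to 3 (log2 fold change 2.99, SE 0.45, adjusted p = 0.000812). Nkx1-1 had 2.51, 0.684, 0.611 and 2.39 CPM in KO libraries 1 to 4, against a single count over all control libraries (adjusted p = 0.00124). It passed the filter on low counts through its KO libraries alone. It was thus tested only because it was high there, and its call, counted among the 3 that rose, is no independent support. Bsx, named after its values were seen, fell (adjusted p = 0.0361) with 0.177 to 0.423 CPM in KO and 0.125 to 1.68 CPM in control libraries, which overlapped.

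Hoxb5 was the only HOX member with enough counts to test, and it fell. Hoxb5 (ENSMUSG00000038700, chr11:96303336-96306121, plus strand) had 11.4, 14.98, 15.4 and 13.4 CPM in KO libraries 1 to 4, against 34.7, 24.9 and 23.0 CPM in control libraries 1 to 3. Every KO library was below every control library, and control 1 was the highest. The means were 13.8 ± 1.81 CPM in KO and 27.5 ± 6.28 CPM in control, with a log2 fold change of -0.997 (SE 0.16, adjusted p = 0.0012), so that control was 2.00-fold above KO. Of all tested genes, 19.0% differed by more. Its antisense transcript shares 3.59% of its exon bases and held 288 counts, against 3840 for Hoxb5. The KO order of Hoxb5 (3, 2, 4, 1 from high to low) was that of the summed endothelial and sinusoidal markers, and of 12% of all tested genes. Meis2 had another KO order (3, 4, 2, 1), that of 3.75% of all tested genes. Among the control libraries, Hoxb5 and Meis2 were highest in control 1, and both marker sums in control 2. The part of the endothelial markers' fall in the Hoxb5 and Meis2 differences was not tested.

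Hoxa9 (ENSMUSG00000038227, chr6:52223100-52231089, minus strand), which in mouse serves blood stem cells and endothelial migration, had 0 counts in KO and 1, 0 and 1 counts in control libraries 1 to 3. Hoxd8 (ENSMUSG00000027102, chr2:74704615-74707933, plus strand) had 3, 1, 2 and 4 counts in KO libraries 1 to 4, against 0 in each control library. A limit of 3 counts corresponds to 0.0873 to 0.132 CPM in these libraries, and apart from Hoxd8 in KO 4 both genes lay at or under it in each library, so no fold is given. With no filter on low counts, over 28753 genes, the adjusted p was 0.261 for Hoxa9 and 0.0597 for Hoxd8. These limits cover counting error only.

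The neighbours of Hoxb5 in the Hoxb cluster, whose genes lie in paralogue order on the chromosome, did not share 1 direction; position in the cluster was not tested. Of 39 HOX genes, 12 were tested, 5 in the Hoxa and 7 in the Hoxb cluster, and 13 were at 0 in all libraries. Among the 12, 3 rose, 3 fell and 6 did not pass the test (median log2 fold change 0.02). The share called was 50%, beside 45.2% of all tested genes. Hoxb3, Hoxb4 and Hoxb5, neighbours in the cluster, fell. Hoxb4, a regulator of blood stem cell growth and the HOX gene with the highest CPM here, averaged 83.0 ± 4.42 CPM in KO and 118 ± 10.1 CPM in control (log2 fold change -0.51, SE 0.09, adjusted p = 0.00159); with library totals its call was lost (adjusted p = 0.0557). Hoxb3 averaged 10.2 ± 1.13 CPM in KO and 17.8 ± 4.81 CPM in control (log2 fold change -0.81, SE 0.18, adjusted p = 0.00617). Its antisense transcript covers 52.9% of its exon bases, so the count is uncertain, and without KO 1 and KO 4 together its call was lost (adjusted p = 0.0507).

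Hoxb8, which in mouse blood progenitors can block differentiation, had 4.56, 5.47, 3.73 and 5.40 CPM in KO libraries 1 to 4, against 1.53, 1.17 and 1.54 CPM in control libraries 1 to 3. It rose 3.39-fold (log2 fold change 1.76, SE 0.22, adjusted p = 0.000303), with no overlap. Hoxb6 rose as well, with 4.82 ± 1.22 CPM in KO and 2.84 ± 0.242 CPM in control (log2 fold change 0.76, adjusted p = 0.0219), but its call was lost without control 1 (adjusted p = 0.0672), control 2 (0.0740) or KO 4 (0.0552). Hoxb7, between them, had 6.17 ± 1.55 CPM in KO and 4.30 ± 0.849 CPM in control and did not pass the test (adjusted p = 0.105), nor did Hoxb2 at the other end, with 5.04 ± 1.04 CPM in KO and 6.50 ± 1.27 CPM in control (adjusted p = 0.172). The ratio of Hoxb8 to Hoxb5 counts, which is free of scaling, was 0.401, 0.365, 0.242 and 0.402 in KO libraries 1 to 4, against 0.0441, 0.0468 and 0.0668 in control libraries 1 to 3.

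The Hoxb genes summed to 122 to 136 CPM in KO and 162 to 201 CPM in control libraries. In the Hoxa cluster, 1 of 5 tested genes rose, Hoxa3 (log2 fold change 0.46, adjusted p = 0.0385), whose call was lost without control 2 (adjusted p = 0.105), control 3 (0.133), KO 1 (0.0837) or KO 2 (0.0825). The Hoxa genes summed to 106 to 125 CPM in KO and 86.7 to 129 CPM in control libraries, with overlap. No Hoxc or Hoxd gene was tested. Of 5 noncoding HOX transcripts tested, Hotairm1 (9.42 ± 1.72 CPM in KO, 6.17 ± 1.09 CPM in control, adjusted p = 0.0282) and Hoxaas2 (7.69 ± 1.61 CPM in KO, 5.03 ± 0.0334 CPM in control, adjusted p = 0.0257) rose. These 2 of 5 (40%) stand beside 45.2% of all tested genes. Both calls were lost when single libraries were left out, and both genes share exon bases with a HOX gene of the opposite strand. Hoxa3, Hoxb2, Hoxb6 and Hoxb7 were named after their values were seen.

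**Figure D3:**
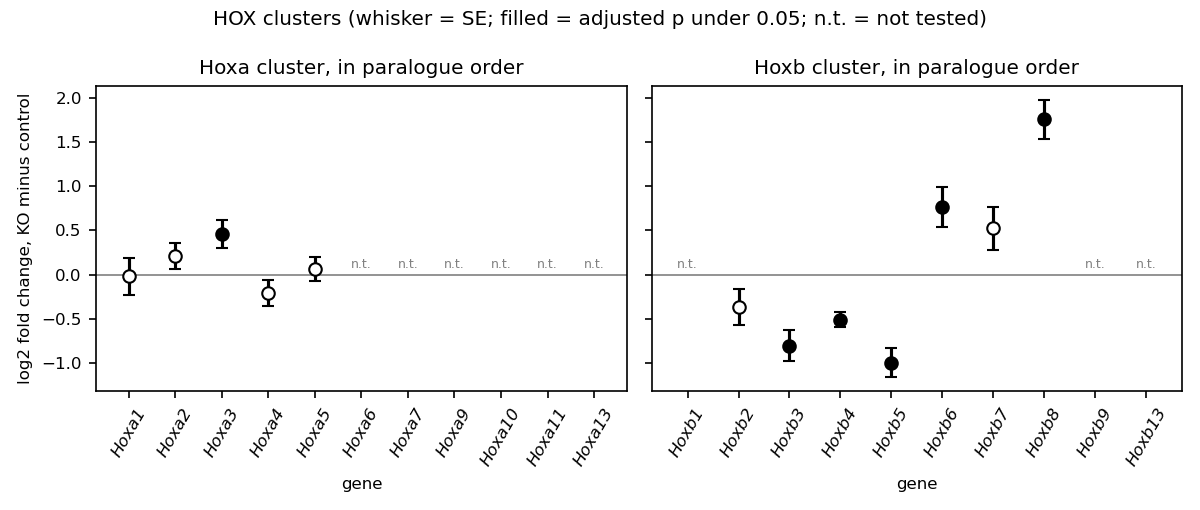
Log2 fold change (Maf KO minus control) of the Hoxa genes (left) and Hoxb genes (right) in paralogue order; whiskers are SE, filled points passed the test, open points did not, and n.t. marks genes not tested. In the Hoxb panel the points from Hoxb2 to Hoxb5 lie below 0 and those from Hoxb6 to Hoxb8 above it.

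Levels can be compared between genes per kb of exon. In KO the order was Hlx with 186 ± 51.3 CPM per kb, Meis2 with 13.6 ± 1.95, Hhex with 12.6 ± 2.42, Meis1 with 8.26 ± 0.841, Hoxb5 with 4.95 ± 0.648, Pbx3 with 4.20 ± 0.329 and Meis3 with 0.232 ± 0.0612 (SD, n = 4). In control it was Hlx with 65.7 ± 23.8 CPM per kb, Meis2 with 23.2 ± 1.34, Hoxb5 with 9.88 ± 2.26, Hhex with 9.11 ± 3.02, Meis1 with 4.04 ± 0.875, Pbx3 with 3.53 ± 0.139 and Meis3 with 0.212 ± 0.0757 (SD, n = 3). Each mean lay within the other's SD for Meis2 and Hhex in KO and for Hoxb5 and Hhex in control. The SD ranges overlapped for Hoxb5 and Pbx3 in KO and for Meis1 and Pbx3 in control. Control 1 was the highest control library in 6 of the 7 tested members, all but Pbx3, as in 35.4% of all tested genes.

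For each member that changed, the genes with the most similar pattern over the 7 libraries were found by the root mean square difference of log2 level relative to the control mean, among 9271 genes. For Meis1 they were Rogdi (0.0676) and Mrps6 (0.0940), a mitochondrial ribosome protein. For Meis2 they were Prkcq (0.0516), the kinase PKC theta, and Sqor (0.0540), which oxidises sulfide in mitochondria. For Hoxb5 they were Nxn (0.0912), a thioredoxin-like protein, and Aldh2 (0.112), which clears acetaldehyde. For Hlx they were Tgif1 (0.188), the TALE repressor above, and Prdm1 (0.196), the repressor BLIMP-1, and both were less close than the nearest genes of the other members. Prdm1 averaged 15.6 ± 5.83 CPM in KO and 5.29 ± 1.69 CPM in control.

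Over all homeobox families listed (207 genes, 206 found), 53 were tested, and 73 were at 0 in all libraries. Among the 53, 13 rose, 16 fell and 24 did not pass the test (median log2 fold change -0.05). The share called was 54.7%, beside 45.2% of all tested genes. Of 10 zinc finger homeobox genes tested, 6 fell and 1 rose, beside 22.2% lower and 23.0% higher of all tested genes. With library totals the genes lower over all homeobox families numbered 8 in place of 16. Zeb1, a repressor of epithelial genes, averaged 125 ± 13.9 CPM in KO and 289 ± 15.8 CPM in control (log2 fold change -1.21, SE 0.11, adjusted p = 4.85e-05). Its relative Zeb2 averaged 106 ± 12.5 CPM in KO and 149 ± 7.32 CPM in control (adjusted p = 0.00522), a call lost with library totals (adjusted p = 0.0668). Zhx2, a repressor of fetal genes in mouse liver, averaged 21.5 ± 2.91 CPM in KO and 32.0 ± 4.32 CPM in control (adjusted p = 0.0073), a call lost without KO 1 and KO 4 together (adjusted p = 0.0516). Zfhx2 was the 1 that rose, with 119 ± 21.5 CPM in KO and 60.8 ± 5.83 CPM in control (adjusted p = 0.000817).

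Among genes of the CUT, HNF, PROS and sine oculis families, 9 were tested, 1 rose and 3 fell. The share called was 44.4%, beside 45.2% of all tested genes. Cux2, a CUT repressor, averaged 13.0 ± 1.68 CPM in KO and 47.2 ± 2.61 CPM in control (log2 fold change -1.85, SE 0.11, adjusted p = 1e-05). Its relative Cux1 fell less (68.7 ± 8.87 CPM in KO, 88.9 ± 2.75 CPM in control, adjusted p = 0.0171), and Hmbox1 passed the test narrowly (181 ± 6.69 CPM in KO, 221 ± 29.7 CPM in control, adjusted p = 0.0499). Prox1, which sets lymphatic identity and is also made by hepatocytes, averaged 5.25 ± 0.360 CPM in KO and 3.59 ± 0.531 CPM in control (adjusted p = 0.0247). The calls of Cux1, Prox1 and Hmbox1 were each lost when a control library was left out (highest adjusted p 0.0553, 0.0860 and 0.218). With library totals the adjusted p was 0.325 for Cux1 and 0.851 for Hmbox1, and Hmbox1 kept its call in 5 of 19 alternatives. Of 3 POU genes none passed, Pou6f1 being highest with 61.7 ± 4.50 CPM in KO and 69.7 ± 5.67 CPM in control. The single PRD gene tested, Hopx, had 0.383 ± 0.131 CPM in KO and 0.269 ± 0.169 CPM in control (adjusted p = 0.433). No ParaHox or HOX-linked gene was tested.

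Partners of homeodomain proteins were listed too. Of 5 TLE co-repressors tested, which HHEX recruits, 1 rose and 3 fell (80% called, beside 45.2% of all tested genes). Tle3 averaged 155 ± 22.6 CPM in KO and 60.3 ± 9.47 CPM in control (log2 fold change 1.37, SE 0.15, adjusted p = 0.000131). Tle1 had 58.9, 81.1, 113 and 89.1 CPM in KO libraries 1 to 4, against 117, 227 and 365 CPM in control libraries 1 to 3, just short of overlap (adjusted p = 0.00755). Tle4 (42.2 ± 3.61 CPM in KO, 56.7 ± 4.63 CPM in control, adjusted p = 0.00579) and Tle2 (25.1 ± 2.44 CPM in KO, 32.5 ± 3.86 CPM in control, adjusted p = 0.0236) fell by less. With library totals the calls of Tle4 (adjusted p = 0.111) and Tle2 (0.506) were lost, and that of Tle1 without KO 1 and KO 4 together (0.0602).

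Of 9 PBX, MEIS and LIM cofactors tested, 3 rose and 2 fell (55.6% called, beside 45.2% of all tested genes). Ssbp2, a single-stranded DNA binding adaptor, averaged 3.10 ± 0.855 CPM in KO and 7.31 ± 0.590 CPM in control (adjusted p = 0.00267), whereas its relatives Ssbp3 (73.9 ± 11.8 CPM in KO, 54.1 ± 0.709 CPM in control, adjusted p = 0.0179) and Ssbp4 (211 ± 21.4 CPM in KO, 161 ± 6.37 CPM in control, adjusted p = 0.0137) rose. Pbxip1, which binds PBX and blocks its pairing with HOX, averaged 96.1 ± 7.11 CPM in KO and 121 ± 4.26 CPM in control (adjusted p = 0.0118). With library totals the call of Pbxip1 was lost (adjusted p = 0.519), and without control 2 those of Ssbp3 (0.0691) and Ssbp4 (0.0632). Ldb1, the LIM-binding scaffold, was at 368 ± 33.7 CPM in KO and 331 ± 12.7 CPM in control and did not pass the test (adjusted p = 0.257).

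Of 7 genes of the MLL and menin machinery that maintains HOX expression, 4 rose and 1 fell. The share called was 71.4%, beside 45.2% of all tested genes. Dot1l, a histone H3 methyltransferase listed with that group, averaged 205 ± 43.8 CPM in KO and 122 ± 7.09 CPM in control (log2 fold change 0.75, SE 0.16, adjusted p = 0.00441). Men1, the gene of menin, averaged 81.5 ± 3.42 CPM in KO and 65.0 ± 5.19 CPM in control (adjusted p = 0.0107). Psip1 (37.3 ± 2.13 CPM in KO, 30.6 ± 1.65 CPM in control, adjusted p = 0.0219) and Rbbp5 (49.2 ± 1.36 CPM in KO, 41.8 ± 0.721 CPM in control, adjusted p = 0.0228) rose by less. Without control 2 the calls of Men1 (adjusted p = 0.0617), Psip1 (0.0922) and Rbbp5 (0.0879) were lost.

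The 4 calls among the members held in each of the 19 alternatives tried, of which 18 are distinct, since leaving out KO 4 and keeping replicates 1 to 3 with no block use the same libraries. The log2 fold change ranged over them from 0.90 to 1.30 for Meis1, from -0.94 to -0.51 for Meis2, from 1.28 to 1.82 for Hlx and from -1.21 to -0.74 for Hoxb5, and the highest adjusted p was 0.00643, 0.0101, 0.0151 and 0.0133 in that order of genes. Within lane 5 alone (3 KO and 2 control libraries) the log2 fold change was 0.93 for Meis1 (adjusted p = 0.0037), -0.94 for Meis2 (adjusted p = 0.000744), 1.38 for Hlx (adjusted p = 0.00377) and -1.21 for Hoxb5 (adjusted p = 0.00148). It was 0.16 for Pbx3 and 0.37 for Hhex there, neither of which passed the test. Lane 4 held 1 library of each group and allows no test; KO 3 and control 3 differed in the same direction as the groups for all 4 genes that changed. Pknox2, Pknox1, Hoxb8, Msx1, Cux2, Zeb1, Zfhx2, Tle3, Ssbp2 and Dot1l kept their direction and call in each of the 19 as well. Nkx1-1 kept its own in the 18 in which it was tested, with the limit of the filter given above. Among the other genes named as changed, the call held in 15 of 19 for Pbxip1, Ssbp4 and Men1, in 14 for Hotairm1, in 13 for Hoxa3, Hoxb6 and Ssbp3, in 12 for Cux1, Tle2 and Psip1, in 11 for Prox1, in 10 for Hoxaas2 and in 9 for Rbbp5.

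**Figure D4:**
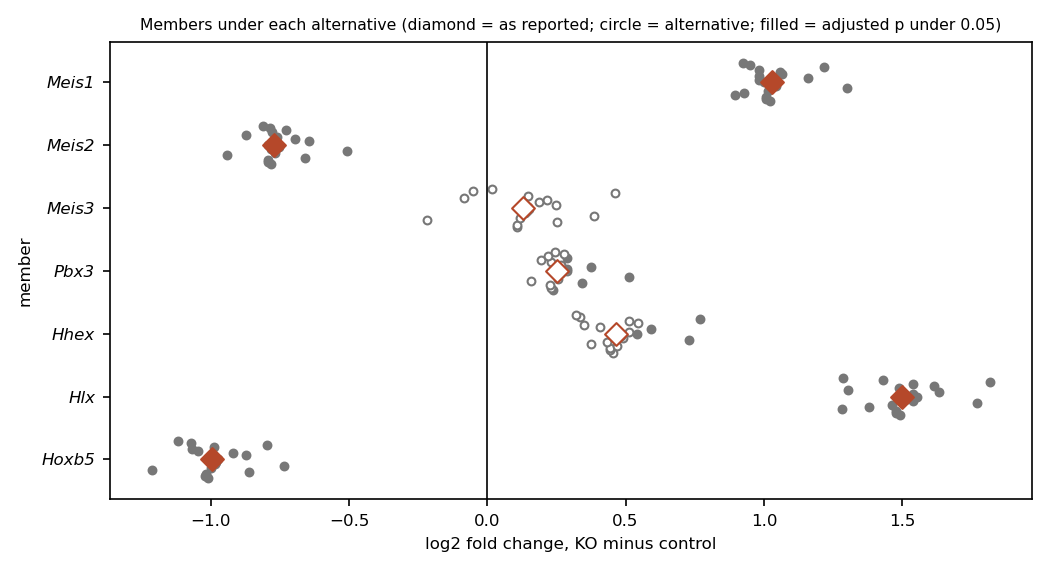
Log2 fold change (Maf KO minus control) of the 7 tested members as reported (diamond) and under each alternative (circles); filled symbols passed the test. Meis1 and Hlx stay above 0 and Meis2 and Hoxb5 below it with filled symbols throughout, whereas Pbx3 and Hhex hold a mixture of open and filled symbols and Meis3 lies on both sides of 0.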

How the data were processed

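Poly(A) RNA of flow-sorted mouse liver endothelial cells was sequenced in 4 Maf KO and 3 control libraries. The deposited values are raw read counts for Ensembl genes, as the authors made them, with no normalization. Per the submitters' processing notes, FastQC 0.11.5, STAR 2.7.6a and build GRCm38 were used; the counting tool, annotation release and strand setting were not given in the sources used here. Per the labels' protocols, an unstranded or a stranded kit was used without saying for which library, so overlapping and antisense genes are uncertain.

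Symbols were matched to 52489 of 52636 IDs, and exon lengths came from the GRCm38 annotation. Genes were filtered with filterByExpr (minimum count 10, total 15), scaled by TMM and tested with edgeR 4.0.16 (glmQLFit and glmQLFTest, group only, all 7 libraries, R 4.3.3), with Benjamini-Hochberg adjustment over all 15512 genes. The test was checked on simulated data. Alternatives used limma 3.58.1, DESeq2 1.42.0, other scalings, other filters, lane, a replicate block and left-out libraries.

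The members, lists and alternatives were chosen with earlier results of these data known. Named genes were all members, Maf, up to 4 genes per list with the smallest p past the threshold and a log2 CPM of at least 0, the most abundant gene of each list, and the 2 nearest patterns of each member that changed; genes of the LIM family and Meox1 (under 1 CPM) are not described. The stress list, ratios and CCAAT search were added after values were seen.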

Additional observations from a re-analysis of the deposited data

How the results depend on the processing

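Meis1, Meis2, Hlx and Hoxb5 kept their direction and their side of the threshold under all 19 alternatives, and 2 members were lower in each of them. The counts of higher members became 4 under upper-quartile scaling and 4 under library totals, where Pbx3 (log2 fold change 0.3752 and 0.514) and Hhex (0.5912 and 0.729) passed the test. Pbx3 also passed with a CPM of at least 1 in 3 libraries (0.239), with replicates 1 to 3 and no replicate block (0.2896) and without KO 1 and KO 4 together (0.3405); with single libraries left out it ranged from 0.1939 to 0.2896. Hhex passed with the replicate block (0.542), and ranged from 0.3216 to 0.7699 with single libraries left out. Meis3 was -0.2195 in lane 5 alone and ranged from -0.08577 to 0.463 with single libraries left out.

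Scaling moved the balance of all calls: with library totals 6373 genes were higher and 1976 lower, 76.33% of calls being higher, against 63.43% under upper-quartile scaling and 50.81% under TMM, and the median log2 fold change of all genes was 0.3085, 0.1693 and 0.0433 under these. Without KO 1 and KO 4 together, 2234 genes were higher. Of the homeobox lists, 16 genes were lower as reported, 8 with library totals, 9 with the replicate block, 10 with replicates 1 to 3 and no block, 7 without KO 1 and KO 4 together, and 10 to 17 with single libraries left out. HOX genes higher numbered 3 as reported, 5 with library totals and 1 to 3 with single libraries left out, the 1 being without control 2. The causes were not tested.

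The labels do not say that replicate numbers shared by KO and control pair the libraries. Deviations of same-numbered libraries correlated at -0.001, 0.135 and 0.008 over 9432 genes. So few libraries cannot settle whether they were paired, so the block says nothing of an effect's strength. With replicates 1 to 3, 5055 genes were called with the replicate block and 5553 without it. Depth limits Meis3, Hoxa9 and Hoxd8, with 146, 2 and 10 counts in all.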
